A study of Mus musculus with 51 samples.

Results

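The calcium/calmodulin kinase genes described here are Camk2a, Camk2b, Camk2d and Camk2g, which encode the α, β, δ and γ subunits of CaMKII, and Camk4, which encodes CaMKIV. Their members were found by gene symbol from the array's annotation, which gave 8 probe sets of 5 genes among 22626 probe sets tested and 11807 genes with a symbol. Camk2a and Camk2b each had 1 probe set and the other genes 2 each, of which the probe set with the higher mean signal leads below.

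CaMKII is a kinase built of many subunits that calcium-loaded calmodulin switches on, and its phosphorylation of itself can hold it active after the calcium signal has passed. It is among the most abundant proteins of excitatory synapses in the forebrain and is needed for long-term potentiation in the hippocampus. CaMKIV acts largely in the nucleus, where it phosphorylates CREB after being switched on by a CaM kinase kinase. The Camk2a promoter has a further part in these animals, since it drives the transactivator that turns on the tau transgene in forebrain neurons.

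The samples were laser-captured layers of the hippocampus from 17 mice labelled female and 4.5 months old, with 1 array each from the CA1 and CA3 pyramidal layers and the granular layer of the dentate gyrus (DG) of every mouse, 51 in all. The mice were littermates of a cross between FVB/N mice with a tetracycline-responsive human tau transgene carrying the P301L mutation and mice of another strain with the tetracycline transactivator (tTA) under the CaMKIIα promoter. The 6 double negative (DN) mice carried neither transgene, the 5 tTA mice only the transactivator, and the 6 rTg4510 mice both. No group was labelled as given doxycycline, which would switch the tau transgene off. Values are RMA signals on the log2 scale, so that a difference of 1 is a doubling of signal, and the median of an array lay between 2.91 and 3.12. A captured layer holds a mixture of cells, in which fewer cells of a type and less RNA per cell cannot be told apart, and signals of different probe sets are not compared in level.

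Some arrays stood apart from their labels. Prnp had signals of 9.59 to 10.55 in the other rTg4510 arrays and of 6.57 to 8.76 in the other DN and tTA arrays, but of 9.65 to 10.44 in all 3 arrays labelled DN mouse 4 and the DG array of DN mouse 5, and of 7.34 in the DG array of rTg4510 mouse 3. The female transcript Xist had signals of 2.49 in CA1 and 4.06 in CA3 of DN mouse 5 and of 2.50 in the same rTg4510 DG array, against 7.85 or more in the others. It was 9.91 in the DG array of DN mouse 5, and 7.85 in CA1 and 8.96 in CA3 of rTg4510 mouse 3. By Xist, the 3 arrays labelled as each of these mice thus did not go together. Counts of mice and fits within mice below follow the labels. All arrays were kept under their labels, and calls that were lost without the first 5 or all 7 are given also without them, as are the genotype differences with the smallest p. To check the subfield labels, each subfield marker was centred on its own mean over all arrays. The centred log2 signals were then averaged over the markers of each subfield. The average was highest for the labelled subfield in 17 of 17 CA3, 17 of 17 DG and 12 of 17 CA1 arrays. The remaining CA1 arrays were not for this reason counted among the 7. Summed CA1 markers ran from 7.57 to 11.17 in CA1 arrays (median 9.77), with medians of 7.33 in CA3 and 8.53 in the DG. Summed CA3 markers ran from 6.44 to 9.57 in CA1 arrays (median 8.78), with medians of 9.78 in CA3 and 8.75 in the DG. The part of such mixing in the CA1 results below was not tested. The 3′ to 5′ difference of Gapdh, a sign of RNA length, was 2.38 ± 0.33 in CA1, 2.46 ± 0.27 in CA3 and 2.76 ± 0.34 in DG (SD, n = 17), and its part in the results below was not tested.

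RefSeq promoter windows on GRCm38.p6 were at hand for 2 of the 5 members, Camk2d, which differed most between subfields, and Camk2b, which differed little, and the 250 bases before the start of each are shown so that both can be read side by side. Capitals mark the GC box GGGCGG on either strand. Camk2d lies on the plus strand of chromosome 3 and its window is chr3:126596701-126596950. Camk2b lies on the minus strand of chromosome 11 and its window, read 5′ to 3′ along the gene, is chr11:6065749-6065998.
Camk2d: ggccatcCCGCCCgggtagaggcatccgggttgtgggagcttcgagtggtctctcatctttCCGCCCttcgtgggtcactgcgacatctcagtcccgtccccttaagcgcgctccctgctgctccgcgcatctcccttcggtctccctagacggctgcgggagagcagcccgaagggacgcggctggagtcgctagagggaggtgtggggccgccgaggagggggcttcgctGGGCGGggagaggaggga
Camk2b: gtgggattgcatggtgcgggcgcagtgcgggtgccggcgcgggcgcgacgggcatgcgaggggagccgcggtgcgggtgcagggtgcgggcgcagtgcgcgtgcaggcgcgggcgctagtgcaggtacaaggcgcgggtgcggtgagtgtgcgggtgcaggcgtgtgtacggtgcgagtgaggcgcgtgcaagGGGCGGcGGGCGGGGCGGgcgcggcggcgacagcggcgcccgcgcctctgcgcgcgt
Each window held 3 GC boxes, which began 243, 189 and 18 bases before the start in Camk2d, the first pair on the opposite strand, and 57, 50 and 45 bases before it in Camk2b, where the last pair shares 1 base. At least 1 GC box was found in 32.7% and 3 or more in 8.47% of the 32851 windows in the table. G and C made up 68.4% of the Camk2d window and 78.4% of the Camk2b window, against a median of 52.4%. The CRE, TGACGTCA, and the TATA box letters TATAAA were in neither window on either strand, and 1.55% and 12.4% of all windows held them.

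The first question was whether the kinase genes differ between the layers, which was tested within mice over all 51 arrays with limma and Benjamini-Hochberg adjustment over all probe sets. Between CA1 and DG, 7 of the 8 probe sets passed, from 4 genes, against a background of 10.9% of all probe sets tested. Of these, 2 were higher and 5 lower in CA1, where 5.6% and 5.33% of all probe sets were called in those directions. Between CA3 and DG, 5 of 8 passed, from 3 genes, against 13.9%, with 2 higher and 3 lower in CA3 beside 7.27% and 6.59% of all probe sets. Between CA1 and CA3, 2 of 8 passed, both of Camk2d and both lower in CA1, against 4.68% of all probe sets, 2.46% higher and 2.22% lower in CA1. The median absolute difference of the 8 probe sets was 1.20 between CA1 and DG, where it was 0.143 over all probe sets, and 0.162 between CA1 and CA3, where it was 0.126.

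**Figure D1:**
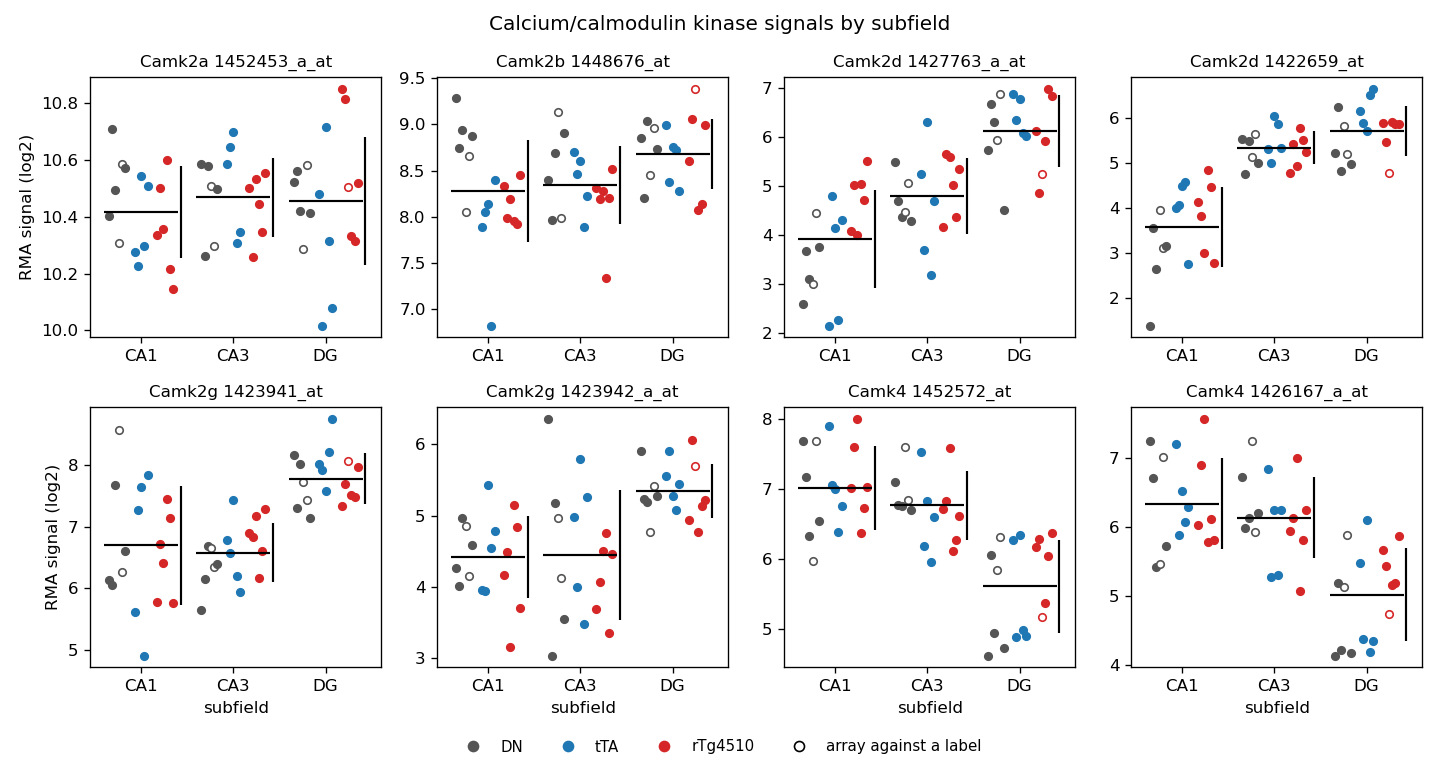
RMA signals (log2) of the 8 probe sets, 1 panel each with its own axis that does not start at 0, against subfield. Each point is 1 array, coloured by genotype, with open points for the 7 arrays that go against a label by Prnp or Xist. A horizontal line gives the mean and a vertical line 1 SD over the 17 arrays of a subfield. Camk2d and Camk2g sit highest in the DG, Camk4 lowest, and Camk2a at 10.02 to 10.85 in every array.

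Camk2a, the most studied CaMKII subunit of forebrain neurons, did not pass in any pair of subfields. Its signal ran from 10.15 through a median of 10.40 to 10.71 in CA1, from 10.26 through 10.50 to 10.70 in CA3 and from 10.02 through 10.48 to 10.85 in the DG. The 3 ranges overlapped almost whole. CA1 differed from CA3 by −0.05 (95% interval −0.19 to 0.09), CA1 from the DG by −0.04 (−0.18 to 0.10) and CA3 from the DG by 0.01 (−0.12 to 0.15), so that any difference larger than about 0.19 on the log2 scale lay outside all 3 intervals. The signal was above that of 99.6% of probe sets, and its SD within groups, 0.175, was near the median of 0.190 over the 157 probe sets of like signal. Whether signals this high are compressed was not tested.

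Camk2b, whose β subunit ties the enzyme to actin filaments, passed between CA1 and DG alone, and narrowly. Its signal ran from 6.82 through 8.19 to 9.29 in CA1, from 7.34 through 8.31 to 9.13 in CA3 and from 8.08 through 8.73 to 9.38 in the DG. The ranges overlapped widely, although 13 of 17 mice had the lower value in CA1 than in the DG. By genotype, the means in CA1 and the DG were 8.76 and 8.70 in DN mice, which were not lower in CA1. They were 7.86 and 8.62 in tTA mice and 8.14 and 8.71 in rTg4510 mice. With limma, no difference between genotypes in these gaps passed (smallest adjusted p = 0.861). The difference of CA1 from the DG was −0.41 ± 0.14 (SE; adjusted p = 0.0491), and that of CA3 from the DG, −0.34 ± 0.14, missed the threshold (adjusted p = 0.0956). The call was lost without the 5 arrays (adjusted p = 0.143), without the 7 (adjusted p = 0.114) and in 11 of 17 fits that left out 1 mouse.

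Camk2d, the δ subunit gene that is better known from heart muscle, was lowest in CA1 by both probe sets. The brighter probe set, 1427763_a_at, rose in steps from CA1 through CA3 to the DG, least from CA1 to CA3 in rTg4510 mice. The 3 means were 3.43, 4.73 and 6.01 in DN, 3.53, 4.63 and 6.43 in tTA, and 4.73, 5.03 and 6.00 in rTg4510 mice. With limma, no difference between genotypes in these steps passed (smallest adjusted p = 0.838). Its signal ran from 2.15 through 4.08 to 5.52 in CA1, from 3.20 through 4.70 to 6.31 in CA3 and from 4.51 through 6.13 to 6.98 in the DG. CA1 and the DG overlapped in 5 CA1 and 3 DG arrays, and 16 of 17 mice had less in CA1. The differences were −2.21 ± 0.27 for CA1 from the DG (adjusted p = 1.74e-07), −1.32 ± 0.27 for CA3 from the DG (adjusted p = 4.61e-04) and −0.89 ± 0.27 for CA1 from CA3 (adjusted p = 0.0483). The call between CA1 and CA3 was lost without the 5 arrays (adjusted p = 0.0882), without the 7 (adjusted p = 0.113) and in 11 of 17 fits without 1 mouse.

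At the other Camk2d probe set, 1422659_at, the signal ran from 1.40 through 3.82 to 4.84 in CA1, from 4.77 through 5.34 to 6.06 in CA3 and from 4.79 through 5.87 to 6.64 in the DG. A single CA1 array reached the lowest CA3 or DG arrays, and all 17 mice had less in CA1 than in CA3 and than in the DG. CA1 was lower than CA3 by 3.40-fold (log2 difference −1.77 ± 0.19, adjusted p = 7.80e-08) and lower than the DG by 4.37-fold (−2.13 ± 0.19, adjusted p = 2.61e-10). CA3 did not pass against the DG (−0.36 ± 0.19, adjusted p = 0.221). Both probe sets gave a DG signal over 4-fold that of CA1, but placed CA3 differently, near the DG at 1422659_at and between the 2 at 1427763_a_at. Across arrays they correlated at r = 0.632 (n = 51), and at 0.147 once the 9 group means were taken off, so that most of what they shared lay between the groups.

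Camk2d was above the array median in 48 of 51 arrays at 1427763_a_at and in 46 at 1422659_at, so that its lowest CA1 values lay below that median. Over all genotypes together, the medians of the summed astrocyte, microglial and endothelial markers had the same order of subfields as Camk2d. Those of oligodendrocyte markers had the reverse, from 9.39 for CA1 through 9.12 for CA3 to 8.52 for the DG. The summed signal of the 10 astrocyte markers measured of 11 was 10.13 to 11.91 in CA1 (median 10.52), 10.33 to 11.34 in CA3 (median 10.84) and 10.33 to 11.88 in the DG (median 11.19), with all 10 above the array median in the DG and 9 in CA1. For the 12 microglial markers the medians were 7.38, 7.56 and 7.89, and for the 8 endothelial markers 7.69, 7.89 and 8.04. The microglial order was kept in tTA and rTg4510 mice but not in DN mice, at 7.12, 6.74 and 7.61. The endothelial order was kept in DN and tTA mice but not in rTg4510 mice, at 8.12, 7.97 and 8.49. In CA1, CA3 and the DG, 9, 9 and 5 of the microglial markers averaged below the array median, and 5 of the endothelial ones in each. Slc2a1 was the brightest endothelial marker, at 7.42, 7.41 and 7.74. Single astrocyte, microglial and endothelial genes did not all keep the order of their sum. Among astrocyte markers, Gfap kept it, at 5.31, 5.86 and 7.28, and S100b ran the other way, at 6.37, 5.82 and 5.75. Among microglial markers, Ctss kept it, at 6.27, 6.30 and 6.81, and Tyrobp did not, at 5.07, 4.89 and 5.30. The part of these cells in the Camk2d difference was not tested.

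**Figure D2:**
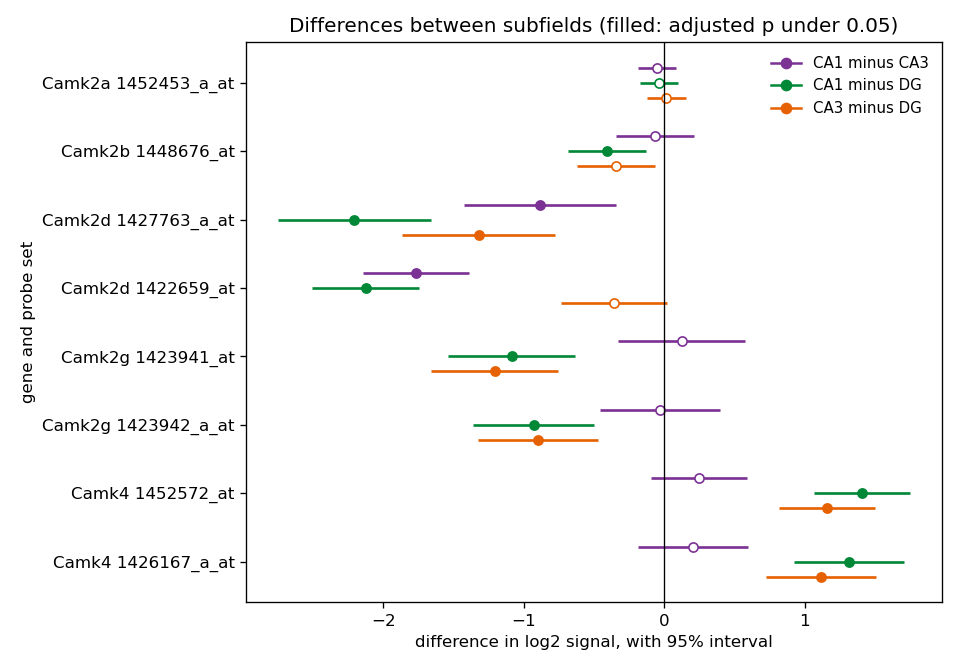
Differences in log2 signal between subfields for each probe set, with 95% confidence intervals from the fit within mice, over 51 arrays. Filled points have an adjusted p under 0.05. Camk2d and Camk2g lie left of 0 against the DG (−0.36 to −2.21 and −0.90 to −1.21), Camk4 right of it (1.12 to 1.41), and Camk2a within 0.06 of it.

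Camk2g, the widely expressed γ subunit gene, was higher in the DG than in either pyramidal layer. At 1423941_at the signal ran from 4.91 through 6.61 to 8.57 in CA1, from 5.65 through 6.60 to 7.43 in CA3 and from 7.14 through 7.72 to 8.75 in the DG. All 17 mice had more in the DG than in CA3, where 3 arrays of each layer overlapped, and 15 of 17 more than in CA1. The DG was higher than CA3 by 2.31-fold (CA3 minus DG −1.21 ± 0.22, adjusted p = 1.35e-04) and than CA1 by 2.12-fold (CA1 minus DG −1.09 ± 0.22, adjusted p = 7.17e-04). The CA1 arrays were the most scattered, with an SD of 0.96 against 0.48 in CA3 and 0.41 in the DG. The dimmer probe set 1423942_a_at gave −0.90 ± 0.21 (adjusted p = 0.00242) and −0.93 ± 0.21 (adjusted p = 0.00212), and correlated with the first at r = 0.534 over the 51 arrays. Neither passed between CA1 and CA3, with intervals of −0.33 to 0.57 and −0.46 to 0.40.

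Camk4 ran the other way and was lowest in the DG. At 1452572_at the signal ran from 5.96 through 7.02 to 8.0 in CA1, from 5.95 through 6.76 to 7.60 in CA3 and from 4.61 through 5.84 to 6.37 in the DG. The highest DG arrays reached into the lower part of both pyramidal layers, but within each of the 17 mice CA1 and CA3 were both above the DG. CA1 was higher by 2.66-fold (1.41 ± 0.17, adjusted p = 1.29e-07) and CA3 by 2.24-fold (1.16 ± 0.17, adjusted p = 3.24e-06). The probe set 1426167_a_at gave 1.32 ± 0.19 (adjusted p = 5.52e-06) and 1.12 ± 0.19 (adjusted p = 5.37e-05), and 16 of 17 mice had the same direction. Its signal followed the first closely, at r = 0.965 over the 51 arrays and 0.932 within groups, in contrast to the probe sets of Camk2d and Camk2g. CA1 was above CA3 in 14 and 13 of 17 mice by the 2 probe sets, a difference of 0.25 ± 0.17 and 0.20 ± 0.19 that did not pass. In the DG the values were spread widely within a genotype, as in the tTA mice at 6.27, 4.88, 6.35, 4.98 and 4.90.

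The neuronal markers beside these results were as follows. The 4 excitatory neuron markers measured of 5, all above the array median in every subfield, had a summed signal of 9.37 to 10.25 in CA1 (median 9.93), 9.52 to 10.19 in CA3 (median 9.88) and 8.88 to 10.06 in the DG (median 9.51). Neurod6, which is among the genes most like Camk4, averaged 8.15, 8.41 and 4.95 in the 3 subfields, while Neurod2, Nrgn and Tbr1 were higher in the DG than in CA1, at 6.62 against 6.43, 8.46 against 8.40 and 7.87 against 7.47. The 11 interneuron markers had summed medians of 10.60, 10.10 and 10.29, and single genes differed in order. Pvalb, at 8.52, 7.34 and 6.74, and Sst, at 6.78, 6.55 and 6.34, were highest in CA1. Cck, at 8.55, 8.61 and 7.30, was lowest in the DG. Gad1, at 7.11, 6.23 and 7.76, Gad2, at 7.15, 6.45 and 7.81, and Npy, at 4.61, 4.05 and 5.63, were highest in the DG. Markers of the DG itself were at a median of 6.02 in CA1 and 4.84 in CA3 against 10.13 in the DG, with a highest CA1 array at 8.35. The part of these mixtures in the Camk2g and Camk4 differences was not tested.

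The second question was whether the kinase genes differ between genotypes, with tTA as the control that differs from rTg4510 by the tau transgene and DN as the control without the transactivator that the Camk2a promoter drives. With limma, no member probe set passed in any subfield, in the mean of a mouse over its 3 subfields, or in the difference between subfields, over 3 pairs of genotypes. The background was as low, with 0% of probe sets called in 7 of the 9 comparisons within subfields and 0.00442%, or 1 probe set, in the other 2, and 0% in mouse means and in differences between subfields. At an unadjusted p under 0.05, 6 of 72 tests of members within subfields passed, 8.33% against 5.07% over all probe sets, and the smallest adjusted p was 0.859. In mouse means 2 of 24 passed so, against 5.64%, and in differences between subfields 4 of 72, against 4.81%. Fisher's LSD, the pairwise test of the methods, also called 0 member probe sets within subfields after adjustment.

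For Camk2a, whose own promoter was used for the transgene, signals in CA1 ran from 10.31 through 10.53 to 10.71 in DN mice and from 10.15 through 10.35 to 10.60 in rTg4510 mice, and were 10.28, 10.23, 10.54, 10.30 and 10.51 in tTA mice. The genotypes overlapped in every subfield. In the mean of a mouse, rTg4510 differed from tTA by 0.05 (95% interval −0.12 to 0.22) and tTA from DN by −0.07 (−0.24 to 0.09). Within subfields the differences lay between −0.15 and 0.23, with intervals that together ran from −0.45 to 0.54. None of its 21 genotype tests had an unadjusted p under 0.05. Whether the probe set also reads sequence of the transgene was not tested.

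**Figure D3:**
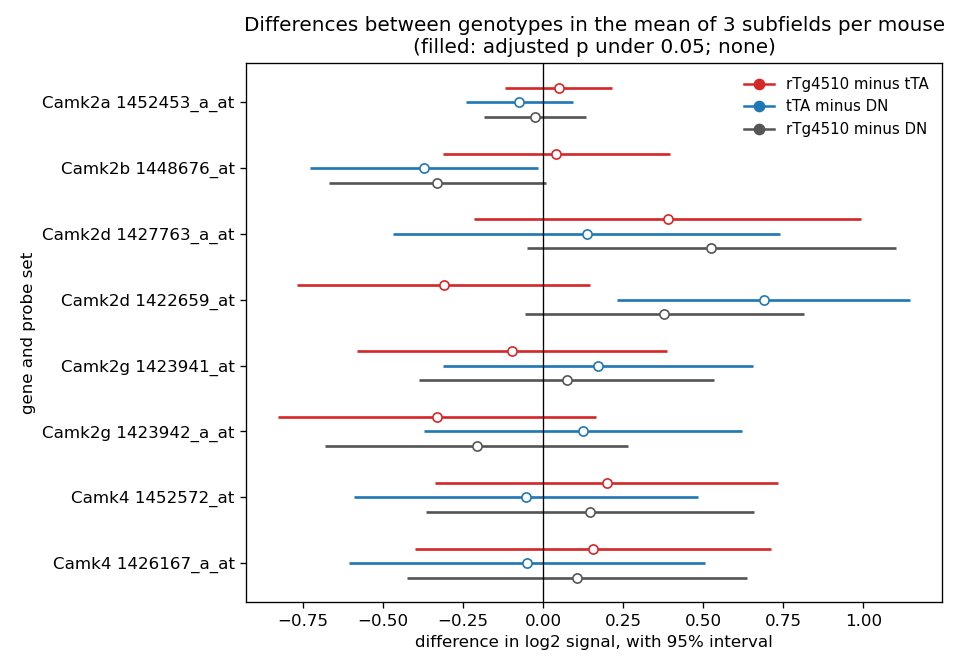
Differences in log2 signal between genotypes in the mean of each mouse over its 3 subfields, with 95% confidence intervals, for 6 DN, 5 tTA and 6 rTg4510 mice. No adjusted p is under 0.05. The intervals of Camk2a, −0.24 to 0.22 in all, are the narrowest of the 8 probe sets. Each other gene has an interval that reaches more than 0.70 from 0, above it or below it.

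Camk2b in CA1 had the smallest unadjusted p of the members. In DN mice its signal ran from 8.05 through 8.81 to 9.29 and in rTg4510 mice from 7.92 through 8.09 to 8.46, and in tTA mice it was 7.89, 8.05, 8.14, 6.82 and 8.40. The lowest DN value was that of DN mouse 4, whose Prnp goes against its label, and the groups overlapped. Without the 7 arrays, the 4 DN arrays left were above every tTA and rTg4510 array, and 1.26% and 0.946% of all probe sets had groups that did not overlap, in either direction, in those comparisons. The difference of tTA from DN was −0.90 ± 0.25 (unadjusted p = 0.00245, limma's adjusted p = 0.998) and that of rTg4510 from DN −0.62 ± 0.24 (unadjusted p = 0.0200, adjusted p = 0.859), and neither passed. Without the 7 arrays they were −1.10 ± 0.26 and −0.82 ± 0.25, with adjusted p of 0.824 and 0.904. Between rTg4510 and tTA the difference in CA1 was 0.28 ± 0.25. The difference of tTA from DN was −0.14 ± 0.25 in CA3 and −0.08 ± 0.24 in the DG, and a difference between subfields did not pass in any of its 9 tests (smallest adjusted p = 0.861). The 3′ to 5′ difference of Gapdh in CA1 had the same order of genotypes as Camk2b, at 2.58 ± 0.33 in DN, 2.39 ± 0.21 in rTg4510 and 2.14 ± 0.32 in tTA arrays (SD), and its part in these values was not tested.

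Camk2d had the other genotype tests within subfields with a small unadjusted p. At 1427763_a_at it was the rTg4510 mice that were high in CA1, from 4.01 through 4.87 to 5.52 against 2.6 through 3.40 to 4.46 in DN mice, with 2.15, 4.80, 4.14, 2.27 and 4.31 in tTA mice. The differences in CA1 were 1.29 ± 0.46 from DN and 1.19 ± 0.48 from tTA, both with an unadjusted p under 0.05 and adjusted p of 0.859 and 0.999. Without the 7 arrays the difference from DN was 1.44 ± 0.51 (unadjusted p = 0.0126), which also did not pass after adjustment, and the 2 groups did not overlap, as was so for 0.946% of all probe sets.

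At 1422659_at the CA1 signal ran from 1.40 through 3.15 to 3.95 in DN mice and from 2.79 through 3.97 to 4.84 in rTg4510 mice, and was 4.01, 4.07, 4.49, 4.59 and 2.77 in tTA mice. The tTA mice differed from DN mice by 1.01 ± 0.46 in CA1, by 0.80 ± 0.28 in the DG and by 0.26 ± 0.23 in CA3. In the mean of a mouse the difference was 0.69 ± 0.22 (unadjusted p = 0.00555, adjusted p = 0.763). Without the 7 arrays it was 1.29 ± 0.51 in CA1, 0.86 ± 0.28 in the DG and 0.83 ± 0.21 in the mean of a mouse, where the 3 mice with such arrays were dropped and limma's adjusted p was 0.532. The tTA and DN groups overlapped in each subfield with and without those arrays. Between rTg4510 and tTA in CA1, 1422659_at differed by −0.14 ± 0.46, so that the 2 probe sets did not give the same order of genotypes. The oligodendrocyte markers, 10 of 15 measured, summed to 9.49 to 11.24 in the rTg4510 CA1 arrays against 7.50 to 9.70 in DN and 8.13 to 9.59 in tTA arrays, and the 12 microglial markers to 7.54 to 9.68 against 6.80 to 7.51 and 6.74 to 7.38. The astrocyte markers overlapped more widely, at 10.30 to 11.91 against 10.13 to 10.91 and 10.16 to 10.78. The part of these cells in the Camk2d values was not tested.

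**Figure D4:**
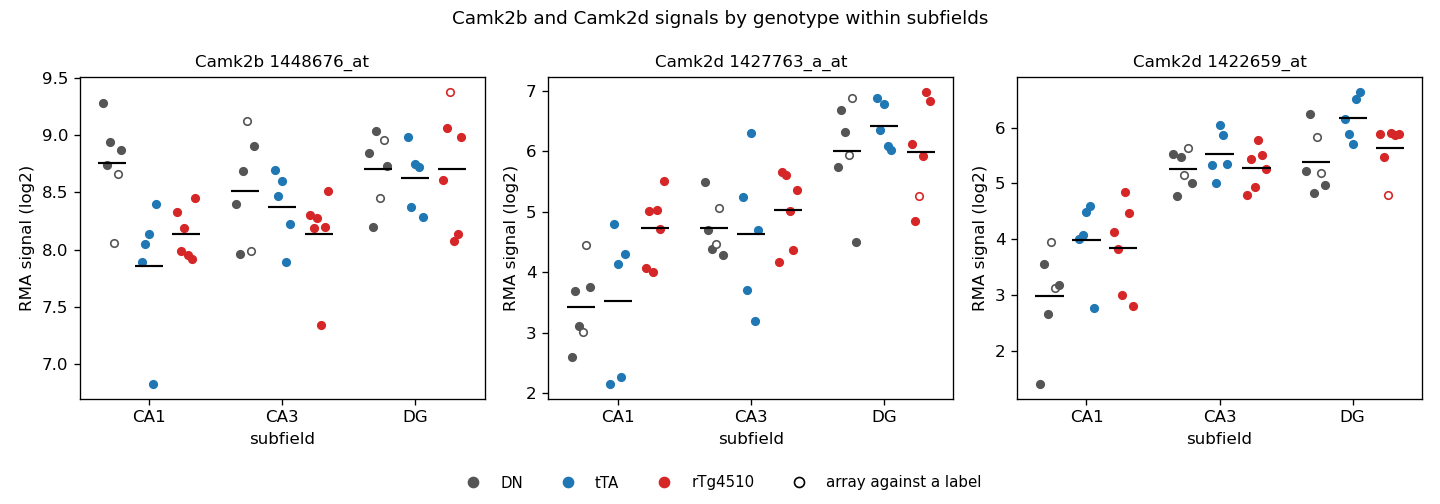
RMA signals (log2) of Camk2b and both Camk2d probe sets by genotype within each subfield, with axes that do not start at 0. Each point is 1 array, open points are the 7 arrays that go against a label by Prnp or Xist, and lines are group means. In CA1, Camk2b averaged 8.76 in DN, 7.86 in tTA and 8.14 in rTg4510 mice, and none of the differences between genotypes passed after adjustment.

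For Camk2g and Camk4 no genotype test had an unadjusted p under 0.05. The differences within subfields lay between −0.42 and 0.52 for Camk2g at 1423941_at, and between −0.34 and 0.49 for Camk4 at 1452572_at. In the mean of a mouse their intervals ran from −0.58 to 0.65 and from −0.59 to 0.73 over the 3 pairs of genotypes. At the dimmer probe sets they ran from −0.83 to 0.62 for Camk2g and from −0.61 to 0.71 for Camk4.

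The genes around the kinases were described from 5 lists of 72 genes, of which 54 had a named probe set. None of them passed in any comparison of genotypes with limma. Within subfields between 0 and 6 genes of a list had an unadjusted p under 0.05, and the 6, of 14 synaptic partners, were in CA1 between rTg4510 and DN, where 5.53% of all genes had such a p. That count was picked as the highest over the lists and comparisons. Between subfields, 5.25% of all genes passed for CA1 against CA3, 11.2% for CA1 against the DG and 14.3% for CA3 against the DG, beside which the counts below stand.

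Calmodulin itself is made from several genes, and buffers such as those encoded by Gap43, Nrgn, Pcp4 and Marcks bind it or are regulated by it. Of 6 genes measured, 1 passed between CA1 and CA3, 2 between CA1 and the DG, and 5 between CA3 and the DG, 3 of these higher in CA3. Marcks was lower in CA1 and in CA3 than in the DG, by −1.45 ± 0.17 (adjusted p = 9.62e-08) and −1.52 ± 0.17 (adjusted p = 2.19e-08). Gap43 was highest in CA3, by 1.06 ± 0.16 over the DG (adjusted p = 6.66e-06) and with CA1 lower than CA3 by −0.99 ± 0.16 (adjusted p = 6.47e-05). The calmodulin gene Calm2 differed little, at 0.26 ± 0.06 for CA1 over the DG (adjusted p = 0.00287).

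Among 10 genes of other calmodulin-dependent or related kinases and their activators, 3 passed between CA1 and CA3, 4 between CA1 and the DG, and 5 between CA3 and the DG. Mylk, myosin light chain kinase, was higher in CA1 than in the DG by 2.0 ± 0.25 (adjusted p = 4.67e-07) and in CA3 by 1.88 ± 0.25 (adjusted p = 8.98e-07). Camk1d, a CaMKI isoform gene, was highest in CA3, 1.20 ± 0.17 over the DG (adjusted p = 1.62e-06). Camkk2, a kinase that activates CaMKI and CaMKIV, was higher in CA3 than in the DG by 0.77 ± 0.20 (adjusted p = 0.00563). It was named for its role after its values were seen, outside the rule for the other genes. Dclk1, a doublecortin-like kinase, was lower in CA3 than in CA1 and than in the DG, the latter by −0.77 ± 0.12 (adjusted p = 8.42e-06).

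Of 11 phosphatase and inhibitor genes, 3 passed between CA1 and CA3, 6 between CA1 and the DG and 4 between CA3 and the DG. Those of calcineurin, the calmodulin-dependent phosphatase, were among them. Ppp3r1, its regulatory subunit, was higher than in the DG by 0.91 ± 0.16 in CA1 (adjusted p = 1.28e-04) and by 0.88 ± 0.16 in CA3 (adjusted p = 1.39e-04), and Rcan1, its regulator, by 0.58 ± 0.16 and 1.0 ± 0.16. Ppp1r1a, an inhibitor of protein phosphatase 1, ran the other way, at −0.78 ± 0.17 and −0.99 ± 0.17. The CaMKII inhibitor genes Camk2n1 and Camk2n2 had no named probe set.

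Of 14 synaptic partners and substrates, 3, 4 and 7 passed in the same 3 comparisons. Tiam1, a Rac activator that binds CaMKII, had the largest difference of any listed gene, with CA3 lower than the DG by −3.56 ± 0.29 (adjusted p = 1.87e-11) and CA1 by −2.56 ± 0.29 (adjusted p = 3.86e-08). Stx1a, syntaxin of the presynaptic membrane, was higher in CA3 than in the DG by 1.65 ± 0.25 (adjusted p = 5.09e-06). Grin2b, the NMDA receptor subunit to which active CaMKII binds, was higher in CA1 than in CA3 by 1.3 ± 0.37 (adjusted p = 0.0343). Homer1, a postsynaptic scaffold, was higher in CA1 than in the DG by 0.83 ± 0.23 (adjusted p = 0.0131).

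Of 13 genes of the CREB axis, in which CaMKIV acts, 2, 5 and 3 passed. Mef2c, a transcription factor regulated by calcium signals, was lower than in the DG by −1.47 ± 0.13 in CA1 (adjusted p = 6.55e-10) and −2.16 ± 0.13 in CA3 (adjusted p = 6.54e-14), whereas Camk4 was higher than in the DG in both. Nr4a1, an immediate early gene, was higher in CA1 than in the DG by 1.97 ± 0.21 (adjusted p = 1.91e-08) and than in CA3 by 1.49 ± 0.21 (adjusted p = 1.04e-05). Bdnf, the neurotrophin gene, was lower in CA1 than in the DG by −0.72 ± 0.19 (adjusted p = 0.00836).

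**Figure D5:**
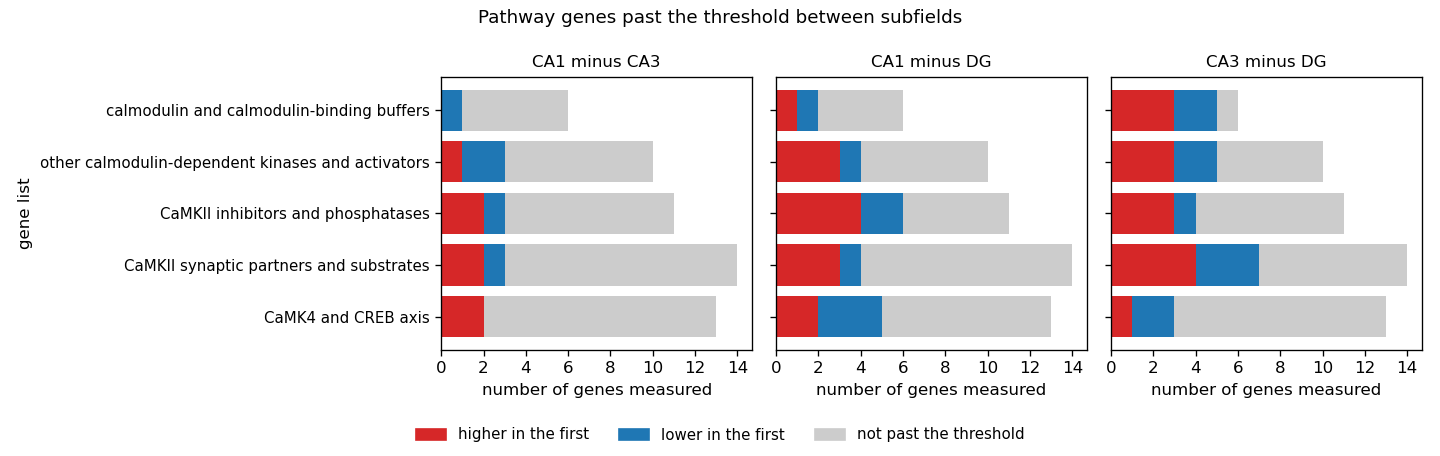
Number of genes of each list (bars, genes measured) that were higher in the first subfield, lower in it, or not past an adjusted p of 0.05, in the 3 comparisons of subfields. The share is highest for calmodulin and its buffers between CA3 and the DG, at 5 of 6 genes, and genes of the same list lie on both sides in most bars.

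The genes whose signals were most like each member over the 51 arrays were found by Pearson's r among the brightest probe sets of all genes, as a description, since the arrays share mice, subfields and processing. For Camk2a they were Kpnb1 (r = 0.598), Map1b (0.571) and Arf3 (0.563), and r remained at 0.567, 0.621 and 0.529 once the 9 group means were taken off. For Camk2b they were Safb (r = 0.743), Trafd1 (0.694) and Dpp6 (0.687), with 0.71, 0.711 and 0.702 within groups. For these 2 genes, the likeness lay among arrays of a group and hardly in the groups themselves.

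For the members that differed between subfields the likeness fell within groups. Camk4 was most like Lynx1 (r = 0.787), Neurod6 (0.778) and Lats2 (0.776), with 0.525, 0.529 and 0.564 within groups. Camk2g at 1423941_at was most like Calb1 (r = 0.783), which encodes calbindin and is a marker of DG granule cells, then Gpc4 (0.768) and Marcksl1 (0.754), with 0.638, 0.616 and 0.567 within groups. Camk2d at 1427763_a_at was most like Mxd4 (r = 0.725), Gfra1 (0.716) and Kcnk1 (0.698), with 0.490, 0.328 and 0.125 within groups.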

How the data were processed

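RNA of laser-captured subfields was, per the methods, amplified (Ovation Pico WTA), labelled with the Encore Biotin module and hybridised to Affymetrix HT-MG-430A arrays. The authors deposited RMA signals, which are background-corrected, normalized between arrays and summarised per probe set. Although the methods speak of anti-log RMA, the deposited numbers are log2 signals by their range, and no transformation was made. RMA shrinks low signals together, so that small differences near background are understated. Arrays give no counts, and the number of mice limits the precision.

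Group and mouse of each array came from the labels. The 90 control probe sets were left out of 22716, which left 22626 for testing, dim ones included. Of these, 18003 have a single gene symbol in the platform annotation, 287 have several and 4336 have none. Prnp has no symbol there and was named through the study's probe set lists. The members and gene lists were chosen with earlier results of these data known.

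Limma 3.58.1 in R 4.3.3 was used, p-values were adjusted by Benjamini-Hochberg across the 22626 probe sets, and the threshold was 0.05, after a test on simulated data. The subfield model held all arrays and a block for each mouse, because the labels give 3 arrays to each animal. After subtraction of group means, the mean correlation was 0.0492 within mice and −0.0210 between mice. Genotypes were compared with 3 genotypes fitted together, within subfields, in mouse means and in each mouse's differences between subfields. Intervals are at 95% confidence. List counts use the brightest probe set of each gene. Named were all member probe sets, up to 4 genes past the threshold per list and comparison with the largest difference, and the 3 genes most correlated with each member (Camkk2 was added for its role, after its values were seen).

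Alternatives were array weights, Fisher's LSD, centring, quantile normalization, a trend of variance with intensity, dropping probe sets under the 40th percentile of mean signal, only the 2 genotypes compared, no block or a random block for the mouse, 1 probe set per gene, and leaving out each mouse. Leaving out the 5 or 7 arrays that go against a label was added after seeing the data. Promoter windows are those of RefSeq on GRCm38.p6. The closest 2 arrays correlated at 0.979. Plots were made in Python 3.11.15 (matplotlib 3.10.9).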

Additional observations from a re-analysis of the deposited data

Results flagged for a closer look

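In the rTg4510 CA3 group, the Camk2b signal of mouse 4 was 7.338, far from the next lowest of the 6 arrays at 8.188, while the highest was 8.517. The gap was 0.721 of the range of the group. It was the only value to stand apart so in 72 groups of arrays, where chance alone gives about 1 in 20. Whether the array or the animal differed was not tested.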

How the results depend on the processing

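The number of member probe sets past the threshold was 2, 7 and 5 for CA1 against CA3, CA1 against the DG and CA3 against the DG. It was 1, 4 and 3 with 1 probe set per gene, where 5 were tested, and 1 for CA1 against CA3 without the 5 or the 7 arrays. Leaving out 1 mouse gave 1 to 2, 6 to 7 and 5 to 6. Without a replicate block for the mouse and with a random replicate block the counts were 2, 7 and 5, and no call of a member changed. Genotype counts were 0 under every alternative run. For single probe sets, Camk2b between CA1 and the DG was −0.37 (adjusted p = 0.0761) after centring, and between CA3 and the DG −0.39 (adjusted p = 0.0459) after quantile normalization. Leaving out DN mouse 4 also brought the latter past the threshold.

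Differences near 0 turned sign, none of them called. Without the 5 or 7 arrays, whose 3 mice were left out of the mouse means, Camk2b was −0.016 between rTg4510 and tTA, and Camk4 0.102 and 0.089 between tTA and DN. Leaving out 1 mouse at a time gave −0.13 to 0.098 for Camk2g 1423942_a_at between CA1 and CA3, and −0.026 to 0.048 for Camk2a between CA3 and the DG. For Camk2d in CA1 it gave −0.45 to 0.065 between rTg4510 and tTA at 1422659_at, and −0.22 to 0.45 between tTA and DN at 1427763_a_at. In mouse means of rTg4510 against tTA it gave −0.27 to 0.012 for Camk2g 1423941_at and −0.077 to 0.15 for Camk2b. In those of tTA against DN it gave −0.026 to 0.27 for Camk2g 1423942_a_at, −0.24 to 0.095 for Camk4 1426167_a_at, −0.27 to 0.098 for Camk4 1452572_at and −0.083 to 0.39 for Camk2d 1427763_a_at. In those of rTg4510 against DN it gave −0.014 to 0.22 for Camk2g 1423941_at, −0.0042 to 0.22 for Camk4 1426167_a_at and −0.048 to 0.0063 for Camk2a.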
